A study of Mus musculus with 6 samples.

Results

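The matrix metalloproteinases (MMPs), the ADAMTS proteases and the tissue inhibitors of metalloproteinases (TIMPs) were followed in primary hepatic stellate cells of wild-type mouse liver, the liver pericytes that make scar matrix once activated. Members were the genes of the deposited table whose symbol was Mmp with a number (and a or b), Adamts with a number, or Timp1 to Timp4. The ADAMTS-like genes were not included. This gave 46 of 56691 genes, namely 23 MMPs, 19 ADAMTS and 4 TIMPs. RNA had been sequenced from 2 libraries in each of 3 groups, all wild type. The groups were Control, with no agent named, TGF-beta, and TGF-beta plus K-80003. The last is written as K-80003 below, although no group had that compound without TGF-beta. Doses, times and the number of mice are not stated, nor whether replicates came from separate cultures. The p-values therefore set group differences against the spread between these libraries, which may not be that between mice or cultures. The study's title is about RXRα, a retinoid-binding nuclear receptor, and the CaMKKβ-AMPKα kinase axis.

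MMPs are zinc-dependent enzymes that are made as inactive precursors and together cleave collagens, proteoglycans, laminin and elastin. ADAMTS enzymes are secreted relatives with thrombospondin repeats, and their branches trim procollagen, cleave the proteoglycans versican and aggrecan, or act on microfibrils and von Willebrand factor. TIMPs bind the active site of MMPs, and Timp3 also blocks several ADAM and ADAMTS enzymes; activated stellate cells are known as a source of both TIMPs and MMPs in fibrotic liver. RNA levels do not give the activity of these enzymes, which depends on precursor cleavage and inhibitors.

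Summed counts per library ran from 15646093 to 19004144. Of the 46 members, 31 passed the filter on low counts and were tested, as were 15987 genes in all. Levels are TMM-scaled CPM, the count relative to library size, in replicates 1 and 2 of each group, in that order. Changes are log2 fold changes from edgeR's quasi-likelihood fit (n = 2 libraries a group). Their SE was derived as the absolute log2 fold change divided by the square root of the test's F statistic. It is approximate and can fall short of the counting error where counts are low. Adjusted p-values are Benjamini-Hochberg values over all genes tested, and a gene was called under 0.05. Replicates differed by more than counting noise. Of 9 stellate cell markers, 9 were detected, and their summed level was 6803 and 4249.5 CPM in Control, 3306 and 5312 with TGF-beta, and 3623 and 2466 with K-80003. It was highest in replicate 1 of Control, 2 of TGF-beta and 1 of K-80003, and 15 of 31 members were also higher in these libraries than in the other library of each group, and 6 were lower. The higher order was found in 48.4% of members and 32.8% of all genes tested, and one or the other order in 67.7% and 63.5%. Endothelial markers summed to 595 and 422 CPM in Control, 304 and 423 with TGF-beta, and 722 and 603 with K-80003. Of the 8, all tested, 0 were called higher and 2 lower with TGF-beta, beside 1.06% and 1.88% of all genes tested. With K-80003, 3 were higher and 1 lower against TGF-beta, beside 2.78% and 7.32%. Against Control, 3 were higher and 2 lower with K-80003, beside 5.54% and 11.7%. Hepatocyte markers summed to 38.2 CPM in K-80003 replicate 2 and 3.72 to 9.54 CPM in the other libraries. The part of both cell types in the results was not tested.

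TIMPs held the largest share of the family's RNA, and the ADAMTS share was lowest with K-80003. Per length, on the deposited FPKM scale, the summed level of the 46 members was 744 and 699 in Control, 697 and 726 with TGF-beta, and 579 and 605 with K-80003. TIMPs made up 44.8 to 54.1% of it over the 6 libraries. The ADAMTS genes summed to 218 and 175 FPKM in Control and 182 and 224 with TGF-beta, but to 99.4 and 86.8 with K-80003, with no overlap between K-80003 and either other group. The MMPs summed to 177 to 209 FPKM, and their group ranges overlapped. The ratio of summed TIMP to summed MMP FPKM was 1.90 and 1.50 in Control, 1.66 and 1.84 with TGF-beta, and 1.69 and 1.71 with K-80003, so the groups overlapped in it too. These sums and ratios are descriptions, with no test.

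Within the MMP sum, the make-up differed between groups. Mmp14, the membrane-bound MT1-MMP that activates pro-MMP2, was the most abundant MMP in every library at 28.4 to 35.0% of the summed MMP FPKM. Mmp2, gelatinase A, held 23.6 and 19.8% in Control, 15 and 18.1% with TGF-beta, and 11.8 and 10.9% with K-80003. Mmp10, stromelysin-2, held 3.77 and 4.65% in Control, 8.89 and 7.91% with TGF-beta, and 21.0 and 21.3% with K-80003. The Mmp2 share was lowest and the Mmp10 share highest in the K-80003 libraries. Among the TIMPs, Timp1 held 9.11 and 16.5% of the summed TIMP FPKM in Control, 29.3 and 19.6% with TGF-beta, and 34.1 and 43.4% with K-80003.

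**Figure D1:**
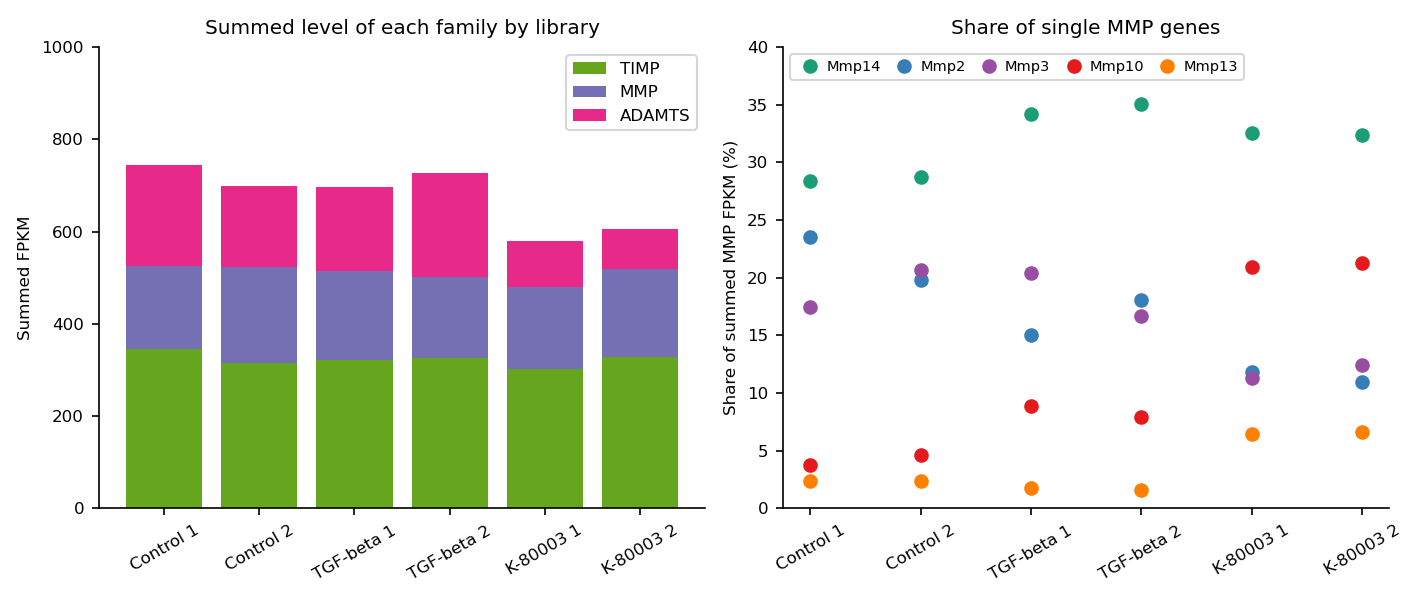
Left, summed FPKM of the 4 TIMP, 23 MMP and 19 ADAMTS genes in each of the 6 libraries, as stacked bars. Right, the share (%) of 5 MMP genes in the summed MMP FPKM of each library, as points; the ADAMTS sum was 182 and 224 FPKM with TGF-beta and 99.4 and 86.8 with K-80003, and the Mmp10 share 8.89 and 7.91% and 21.0 and 21.3%.

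Of the 31 members tested, 6 were called with TGF-beta and 16 when K-80003 was compared with TGF-beta. With TGF-beta against Control, 2 members rose (Adamts6 and Adamts8) and 4 fell (Mmp7, Mmp12, Mmp15 and Adamts13). Of all genes tested, 1.06% were higher and 1.88% lower, or 2.94% called in all. With K-80003 added to TGF-beta, 3 members rose (Mmp10, Mmp11 and Mmp13) and 13 fell, beside 2.78% of all genes higher and 7.32% lower, or 10.1% called in all. In K-80003 against Control, 7 were higher and 14 lower, beside 5.54% and 11.7%, or 17.3% in all. The median log2 fold change of the 31 was 0.00, -0.77 and -0.76 in these comparisons, beside 0.01, 0.01 and 0.02 over all genes tested. These counts describe the members that passed the filter and support no claim about the family. The first and last comparisons share the Control libraries, the first 2 the TGF-beta libraries and the last 2 the K-80003 libraries.

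Each comparison was repeated under 13 alternatives (other scalings, no low-count filter, other tools, replicate blocks and each library left out), and ranges given over alternatives are of the adjusted p. Control 2 stands for replicate 2 of Control, and so on. Losses and gains of a call named for single genes leave out both replicate blocks unless a block is named. The ranges include both blocks. For some genes not called, the lower end of the range lies below every gain listed. That end is from the block with the TGF-beta numbers crossed, which was chosen after seeing the data. The counts of members called moved when a library was left out, and no share of all genes is given beside them. With TGF-beta, lower members went from 4 to 1 for any omitted library, and higher ones from 2 to 1 when Control 2 or TGF-beta 2 was omitted. In the comparison of K-80003 with TGF-beta, higher members went from 3 to 1 on omitting TGF-beta 2, K-80003 1 or K-80003 2. Lower ones went from 13 to 6 and 5 on omitting K-80003 1 and K-80003 2. Against Control, higher members went from 7 to 3 on omitting Control 1 or K-80003 2 and to 4 on omitting Control 2 or K-80003 1. Lower ones went from 14 to 9 on omitting either K-80003 library.

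**Figure D2:**
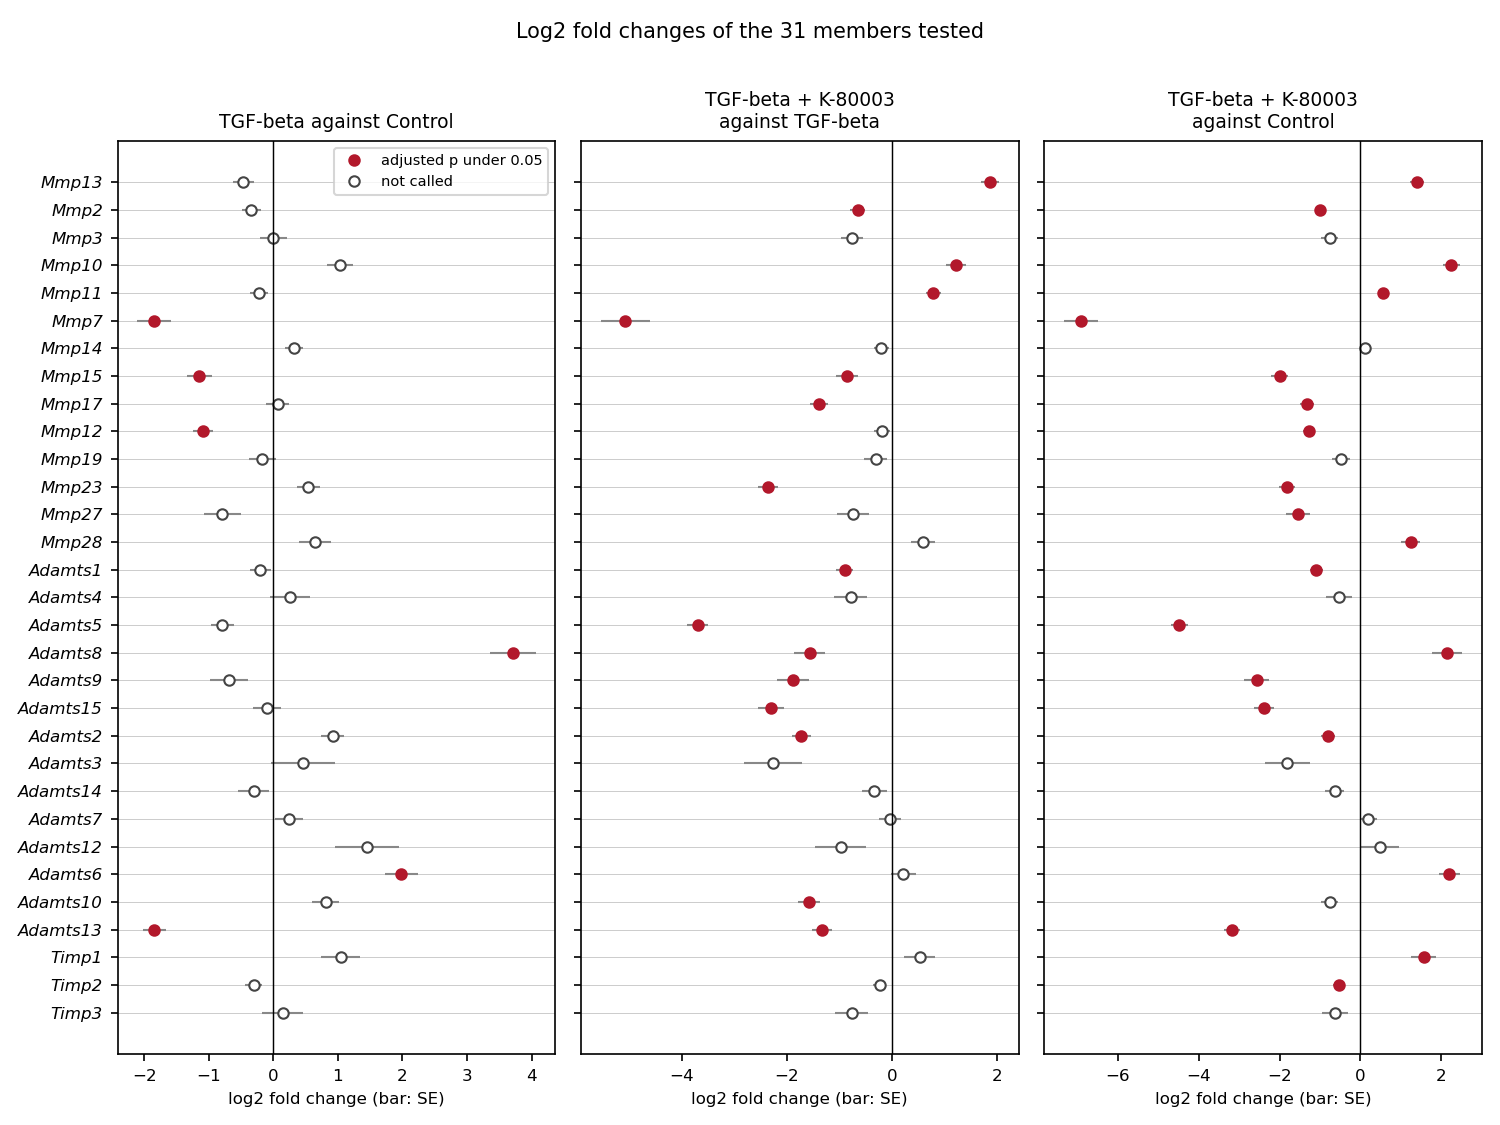
Log2 fold change (x axis) of the 31 members tested, by role from top to bottom, in the 3 comparisons. Bars are the SE derived from the F statistic of the edgeR test, and filled points have an adjusted p under 0.05. In the middle panel 13 points are filled left of 0, from -5.07 for Mmp7 to -0.65 for Mmp2, and 3 right of 0.

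Mmp13, Mmp10 and Mmp11 were the 3 MMPs called higher with K-80003 against TGF-beta. Mmp13, the main interstitial collagenase of rodents (ENSMUSG00000050578, GRCm39 chromosome 9, 7272514 to 7283331), stood at 11.3 and 12.5 CPM in Control, 9.38 and 7.88 with TGF-beta, and 30.5 and 32.4 with K-80003. Both K-80003 libraries lay above all other libraries, and the change against TGF-beta was 1.86 (SE 0.17, adjusted p = 0.00168) and against Control 1.40 (SE 0.16, adjusted p = 0.00261). With TGF-beta alone the difference from Control was -0.46 (SE 0.17, adjusted p = 0.26). Both calls held in all alternatives.

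Mmp10, a stromelysin that cleaves proteoglycans and fibronectin and can activate other pro-MMPs (ENSMUSG00000047562, GRCm39 chromosome 9, 7502353 to 7510241), stood at 11.5 and 16.1 CPM in Control, 30.7 and 25.9 with TGF-beta, and 64.1 and 67.5 with K-80003. The 3 groups did not overlap and stood in the order Control, TGF-beta, K-80003. Mmp10 rose with K-80003 by 1.22 (SE 0.20, adjusted p = 0.0127) against TGF-beta and by 2.25 (SE 0.20, adjusted p = 0.0012) against Control, while TGF-beta alone gave 1.04 (SE 0.20, adjusted p = 0.0536), which was not called. For TGF-beta against Control, Mmp10 was called without the low-count filter (adjusted p = 0.000312) and under DESeq2 (0.00199), with 1.05e-08 to 0.28 over 13 alternatives. Against TGF-beta, Mmp10 lost its call on omitting TGF-beta 2 (adjusted p = 0.0845), K-80003 1 (0.0778) or K-80003 2 (0.0993), with 2.75e-12 to 0.0993 over 13 alternatives.

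Mmp11, stromelysin-3, which is activated inside the cell by furin, stood at 35.0 and 38.6 CPM in Control, 30.2 and 33.1 with TGF-beta, and 54.1 and 54.8 with K-80003. Its K-80003 libraries lay above the others, with a change of 0.78 (SE 0.14, adjusted p = 0.0174) against TGF-beta and 0.57 (SE 0.14, adjusted p = 0.0362) against Control. Against TGF-beta, Mmp11 lost its call on omitting TGF-beta 1 (adjusted p = 0.129), TGF-beta 2 (0.0961), K-80003 1 (0.148) or K-80003 2 (0.157), with 7.5e-08 to 0.157 over 13 alternatives. Against Control, Mmp11 lost its call on omitting any 1 library (adjusted p = 0.0841 to 0.227), with upper-quartile scaling (0.0642) and without the low-count filter (0.0985), with 1.91e-05 to 0.227 over 13 alternatives. Mmp11 overlaps Chchd10 on the opposite strand (137 to 625 counts a library), and the strand setting of the counting was not given. Mmp3, stromelysin-1, stood at 55.9 and 74.7 CPM in Control, 73.7 and 57.0 with TGF-beta, and 36.1 and 41.1 with K-80003, with both K-80003 libraries lowest. Its differences of -0.76 (SE 0.21, adjusted p = 0.0786) from TGF-beta and -0.76 (SE 0.21, adjusted p = 0.0556) from Control were not called. Against TGF-beta, Mmp3 was called without the low-count filter (adjusted p = 0.00638) and under DESeq2 (0.0305), with 9.47e-08 to 0.404 over 13 alternatives. Against Control, Mmp3 was called on omitting Control 1 (adjusted p = 0.0452), without the low-count filter (0.00504) and under DESeq2 (0.0215), with 7.69e-08 to 0.304 over 13 alternatives.

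**Figure D3:**
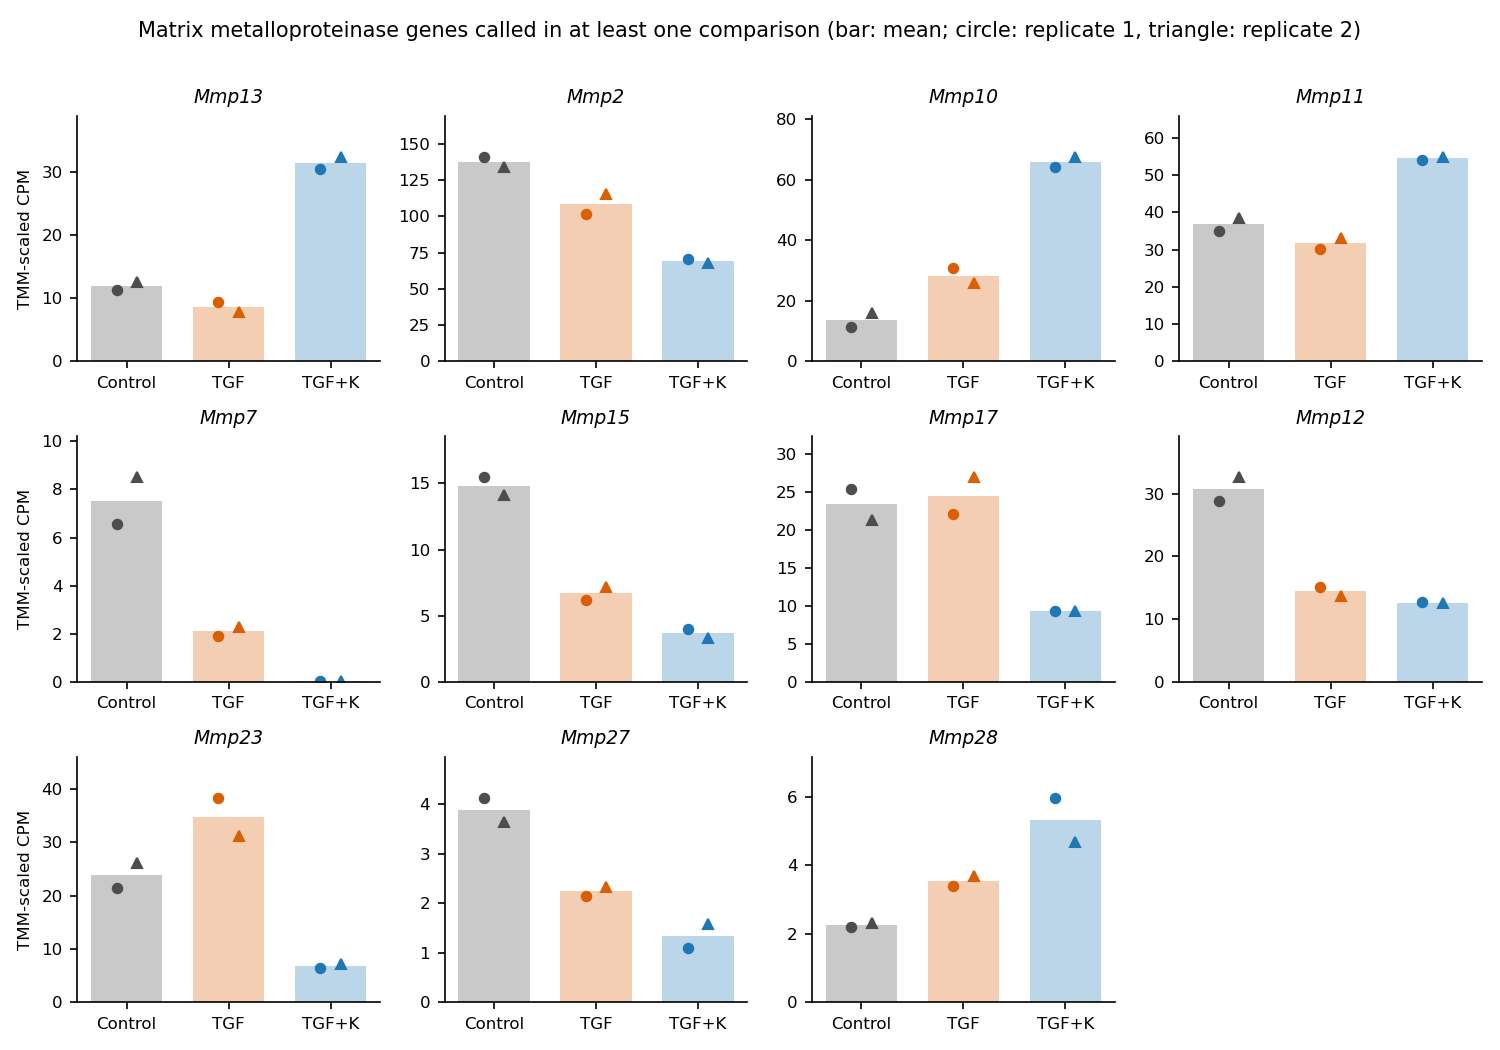
TMM-scaled CPM (y axis, from 0) of the 11 MMP genes called in at least 1 comparison, in Control, TGF-beta (TGF) and TGF-beta with K-80003 (TGF+K); bars are means of 2 libraries, circles replicate 1 and triangles replicate 2. Mmp13, Mmp10 and Mmp11 are highest with K-80003, while Mmp7 goes from 6.57 and 8.50 CPM in Control to 0.0523 and 0.0585.

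Mmp13, Mmp10 and Mmp3 belong to a gene cluster on chromosome 9 in which members were called in both directions with K-80003 against TGF-beta. It held 10 members within 427 kb (7272514 to 7699586, GRCm39), of which 6 were tested: Mmp13, Mmp12, Mmp3, Mmp10, Mmp27 and Mmp7 in their order on the chromosome. With K-80003 against TGF-beta, Mmp13 and Mmp10 rose and Mmp7 fell. Mmp12, Mmp3 and Mmp27 were not called there, at -0.19, -0.76 and -0.75. Mmp3 and Mmp10 lie 46.4 kb apart.

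**Figure D4:**
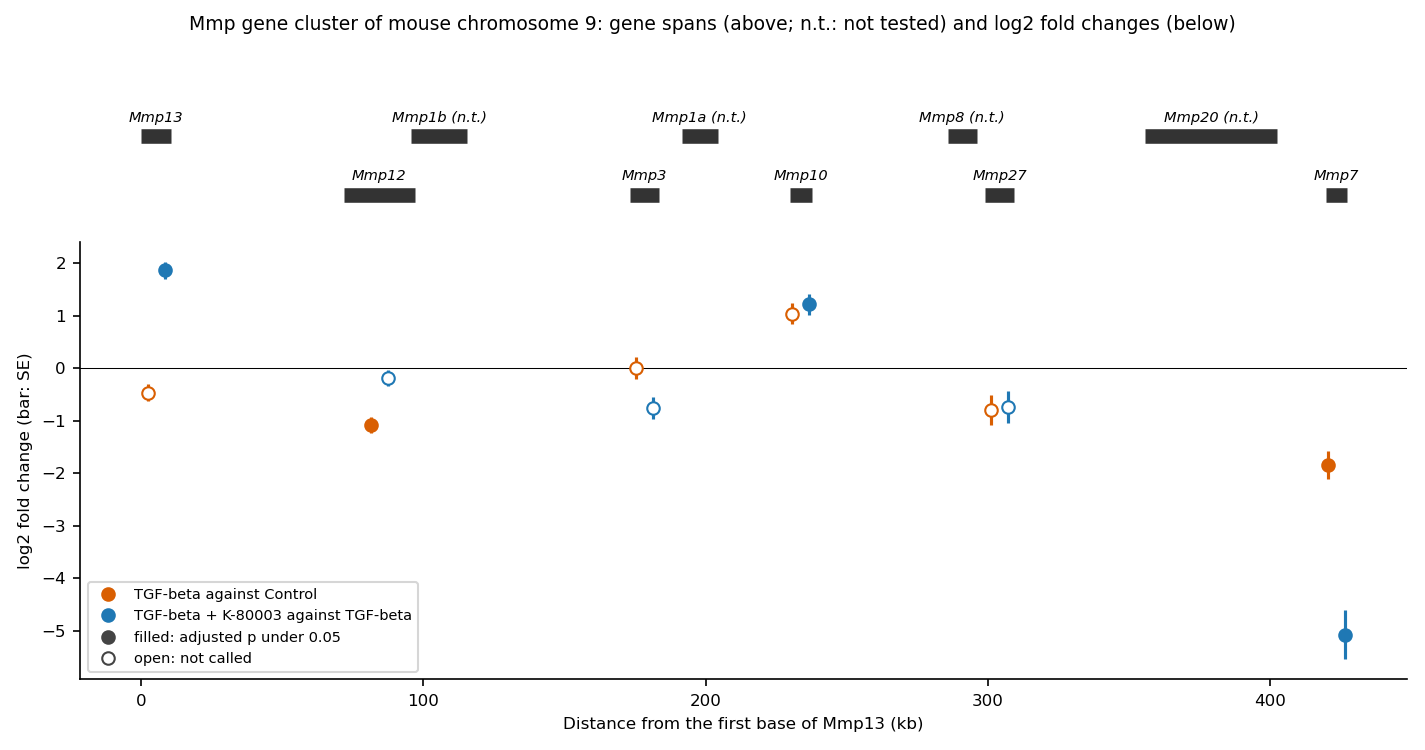
Spans of the 10 clustered Mmp genes by distance (kb) from the first base of Mmp13, above, and the log2 fold changes with SE of the 6 tested genes, below, for TGF-beta against Control and K-80003 against TGF-beta; filled points have an adjusted p under 0.05. In the K-80003 comparison the ends of the cluster differ, with Mmp13 at 1.86 and Mmp7 at -5.07.

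Most of the clustered genes share promoter letters, among them Mmp13 and Mmp10, called higher with K-80003 against TGF-beta, and Mmp7, called lower. The AP-1 motif TGAGTCA, bound by FOS and JUN family dimers, was searched on both strands in the 250 bases before each start site of RefSeq (GRCm38.p6), where 32 of 46 members had an entry. It occurred in 7 of 10 clustered members (Mmp1a, Mmp1b, Mmp3, Mmp7, Mmp10, Mmp12 and Mmp13) and in 0 of 22 members elsewhere, beside 4.46% of all 32851 promoters. Mmp8, Mmp20 and the tested Mmp27 had no match. A member was counted if any of its start sites matched, while the share is over single promoters. The motif began 35 bases before the start site in Mmp13, 44 in Mmp12, 46 in Mmp3, and 63 in both Mmp10 and Mmp7. TATAAA was present in 7 of 10 clustered members, 2 of 22 members elsewhere and 12.4% of all promoters. The 2 motifs share no base in the sequences shown. The SMAD palindrome GTCTAGAC and direct repeats of AGGTCA, the nuclear receptor letters, with 1 or 5 bases between them, were searched likewise and found before no member's start, beside 0.167%, 0.0335% and 0.00913% of all promoters. The 100 bases before the start are shown for the 5 tested genes with the motif, to set the 2 that rose with K-80003 (Mmp13 and Mmp10) beside 3 that did not; AP-1 and TATAAA letters are in capitals. Positions are on GRCm38.p6. Mmp12 and Mmp7 have 2 start sites each in the table, and the one with the motif is given.
Mmp13, chr9:7272414-7272513, + strand: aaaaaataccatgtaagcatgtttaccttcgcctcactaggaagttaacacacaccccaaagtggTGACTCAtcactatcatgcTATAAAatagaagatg
Mmp10, chr9:7502242-7502341, + strand: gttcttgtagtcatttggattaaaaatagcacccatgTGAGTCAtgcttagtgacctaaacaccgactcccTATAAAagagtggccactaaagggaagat
Mmp3, chr9:7445722-7445821, + strand: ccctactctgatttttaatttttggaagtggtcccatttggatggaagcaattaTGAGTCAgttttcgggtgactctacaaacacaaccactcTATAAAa
Mmp12, chr9:7347274-7347373, + strand: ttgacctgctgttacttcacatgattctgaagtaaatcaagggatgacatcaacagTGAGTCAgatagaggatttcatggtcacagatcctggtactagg
Mmp7, chr9:7691990-7692089, + strand: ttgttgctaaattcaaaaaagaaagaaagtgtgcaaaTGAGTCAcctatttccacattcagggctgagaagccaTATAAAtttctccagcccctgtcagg

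Of the 7 AP-1 genes, Fosl1, which encodes FRA-1, rose with K-80003 against TGF-beta by 2.71 (SE 0.27, adjusted p = 0.00225). It stood at 3.13 and 3.41 CPM in Control, 1.81 and 3.02 with TGF-beta, and 16.1 and 15.5 with K-80003. Its K-80003 libraries lay far above the others. None of the other 6 was called in that comparison, in which 10.1% of all genes tested were called. Junb and Fos were at 0.16 and -0.10. No AP-1 gene was called by edgeR with TGF-beta against Control, where 2 of 7 had an unadjusted p under 0.05 and DESeq2 and limma called 1 each. Whether these factors bind the motifs here was not tested.

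Mmp7, matrilysin, a small MMP of epithelial cells without the hemopexin domain of most MMPs (ENSMUSG00000018623, GRCm39 chromosome 9, 7692091 to 7699586), was near 0 with K-80003. It stood at 6.57 and 8.50 CPM in Control, 1.92 and 2.28 with TGF-beta, and 0.0523 and 0.0585 with K-80003, the last being 1 count in each K-80003 library. The groups did not overlap. Over the group, 2 counts with K-80003 faced 71 with TGF-beta, a level 37.9 times higher with TGF-beta (95% counting interval 10.1 to 319). Against the 252 counts of Control the ratio was 137 (37.5 to 1138). The calls had an adjusted p of 0.00179 against TGF-beta and 0.00037 against Control. With TGF-beta alone Mmp7 fell by 1.84 (SE 0.26, adjusted p = 0.0203) on the log2 scale. In that comparison Mmp7 lost its call on omitting any 1 library (adjusted p = 0.0507 to 0.118), with 2.83e-07 to 0.118 over 13 alternatives.

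Markers of duct and mesothelial cells, summed, were also highest in Control. The 10 markers, none at 0 in all libraries, summed to 869 and 1233 CPM in Control, 334 and 275 with TGF-beta, and 227 and 273 with K-80003. With TGF-beta, 5 of 9 tested fell, among them Krt19 (-2.78) and Msln (-1.93), beside 1.88% of all genes tested. With K-80003 against TGF-beta, 1 fell (Wt1), beside 7.32% of all genes tested, while Krt19 and Msln differed by -0.12 and -0.12. Against Control, 9 of 9 were lower with K-80003, beside 11.7% of all genes tested. The part of these cells in the Mmp7 change was not tested. In such bulk samples fewer cells of a type and less RNA per cell cannot be told apart.

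The gelatinase and membrane-type genes were lower with K-80003 or not called. Mmp2, which degrades type IV collagen and gelatin (ENSMUSG00000031740, GRCm39 chromosome 8, 93553919 to 93580048), stood at 141 and 134 CPM in Control, 102 and 115 with TGF-beta, and 70.5 and 67.8 with K-80003, with no overlap between groups and K-80003 lowest. It fell by 0.65 (SE 0.14, adjusted p = 0.0381) on the log2 scale against TGF-beta and by 0.99 (SE 0.15, adjusted p = 0.00611) against Control. Against TGF-beta, Mmp2 lost its call on omitting Control 1 (adjusted p = 0.0509), TGF-beta 1 (0.108), TGF-beta 2 (0.169), K-80003 1 (0.254) or K-80003 2 (0.296) and under limma on log2(FPKM + 1) (0.0549), with 3.39e-07 to 0.296 over 13 alternatives. Against Control, Mmp2 lost its call on omitting K-80003 1 (adjusted p = 0.0708) or K-80003 2 (0.0839), with 9.42e-12 to 0.0839 over 13 alternatives. Its activator gene Mmp14 (ENSMUSG00000000957, GRCm39 chromosome 14, 54669069 to 54682821) stood at 300.1 and 344 CPM in Control, 409 and 396 with TGF-beta, and 345 and 354 with K-80003. TGF-beta lay above the other groups without overlap. Its differences of 0.32 (SE 0.14, adjusted p = 0.373) with TGF-beta and -0.20 (SE 0.14, adjusted p = 0.477) with K-80003 against TGF-beta were not called.

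Mmp15, which encodes MT2-MMP, stood at 15.5 and 14.1 CPM in Control, 6.16 and 7.20 with TGF-beta, and 4.03 and 3.34 with K-80003. The 3 groups did not overlap, and it fell by 1.15 (SE 0.19, adjusted p = 0.0371) on the log2 scale with TGF-beta and by a further 0.85 (SE 0.20, adjusted p = 0.0487) with K-80003. With TGF-beta, Mmp15 lost its call on omitting any 1 library (adjusted p = 0.0758 to 0.179), with 9.34e-07 to 0.179 over 13 alternatives. With K-80003 against TGF-beta, Mmp15 lost its call on omitting any 1 library (adjusted p = 0.06 to 0.291) and under limma on log2(FPKM + 1) (0.117), with 0.000501 to 0.291 over 13 alternatives. Against Control, K-80003 gave -2.0 (SE 0.20, adjusted p = 0.00168), a call held in all alternatives. Mmp17, a glycosylphosphatidylinositol-anchored MMP, stood at 25.4 and 21.3 CPM in Control, 22.0 and 26.9 with TGF-beta, and 9.37 and 9.31 with K-80003. Control and TGF-beta overlapped, and K-80003 lay below both, at -1.39 (SE 0.18, adjusted p = 0.00557) against TGF-beta. Mmp17 lost its call on omitting K-80003 1 (adjusted p = 0.0586) or K-80003 2 (0.0635), with 4.38e-11 to 0.0635 over 13 alternatives.

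Mmp23, an MMP anchored by its amino end that lacks the hemopexin domain, fell with K-80003. It stood at 21.5 and 26.2 CPM in Control, 38.4 and 31.2 with TGF-beta, and 6.39 and 7.20 with K-80003, with K-80003 far below the other groups. The change was -2.36 (SE 0.19, adjusted p = 0.00138) against TGF-beta and -1.81 (SE 0.19, adjusted p = 0.00194) against Control, and both calls held in all alternatives. Mmp12, macrophage elastase, stood at 28.8 and 32.6 CPM in Control, 15.2 and 13.7 with TGF-beta, and 12.7 and 12.5 with K-80003, with Control above both treated groups. It fell by 1.09 (SE 0.15, adjusted p = 0.0196) on the log2 scale with TGF-beta and differed by -0.19 (SE 0.15, adjusted p = 0.541) between K-80003 and TGF-beta. With TGF-beta, Mmp12 lost its call on omitting any 1 library (adjusted p = 0.0515 to 0.147), with 9.6e-09 to 0.147 over 13 alternatives. K-80003 against Control gave -1.28 (SE 0.15, adjusted p = 0.00285). The 11 macrophage markers, none at 0 in all libraries, summed to 47.7 and 46.9 CPM in Control, 50.1 and 47.8 with TGF-beta, and 25.0 and 30.4 with K-80003. Of the 8 tested, 4 had a positive and 4 a negative log2 fold change with TGF-beta, and their part in the Mmp12 change was not tested.

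The remaining tested MMPs were low. Mmp27 stood at 4.13 and 3.64 CPM in Control, 2.15 and 2.34 with TGF-beta, and 1.10 and 1.58 with K-80003, and Mmp28, epilysin, at 2.19 and 2.31 CPM in Control, 3.39 and 3.69 with TGF-beta, and 5.97 and 4.68 with K-80003. Their order across groups was opposite. K-80003 against Control gave -1.54 (SE 0.30, adjusted p = 0.0165) for Mmp27 and 1.24 (SE 0.24, adjusted p = 0.0177) for Mmp28, and neither was called in another comparison. Mmp27 lost its call on omitting Control 1 (adjusted p = 0.0692), Control 2 (0.0521), K-80003 1 (0.119) or K-80003 2 (0.0569), with 6.86e-05 to 0.119 over 13 alternatives. Mmp28 lost its call on omitting Control 1 (adjusted p = 0.0739), Control 2 (0.0671), K-80003 1 (0.131) or K-80003 2 (0.0584), with 6.56e-05 to 0.131 over 13 alternatives. Mmp19 stood at 7.13 and 6.71 CPM in Control, 5.54 and 6.77 with TGF-beta, and 5.39 and 4.51 with K-80003 and was not called in any comparison.

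The ADAMTS proteases that cleave versican and aggrecan are encoded by 7 of the members. Of these, 6 were tested and 5 fell with K-80003 against TGF-beta, beside 7.32% of all genes tested. Adamts5, the main aggrecanase of mouse cartilage (ENSMUSG00000022894, GRCm39 chromosome 16, 85653061 to 85698716), stood at 297 and 246 CPM in Control, 140.4 and 174 with TGF-beta, and 12.1 and 12.2 with K-80003. The 3 groups did not overlap, and K-80003 gave -3.69 (SE 0.20, adjusted p = 0.000456) against TGF-beta and -4.48 (SE 0.20, adjusted p = 0.000188) against Control, calls held in all alternatives. TGF-beta alone gave -0.79 (SE 0.18, adjusted p = 0.0807). In that comparison Adamts5 was called without the low-count filter (adjusted p = 0.00955), under DESeq2 (0.0114) and under limma on log2(FPKM + 1) (0.0414), with 6.91e-09 to 0.375 over 13 alternatives.

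Adamts1, a versican-cleaving protease that lies 53.1 kb from Adamts5 on the same strand (ENSMUSG00000022893, GRCm39 chromosome 16, 85590715 to 85600001), stood at 435 and 359.7 CPM in Control, 330.1 and 363 with TGF-beta, and 193 and 178 with K-80003. K-80003 was lowest, at -0.90 (SE 0.16, adjusted p = 0.0184) against TGF-beta and -1.10 (SE 0.16, adjusted p = 0.00617) against Control. Against TGF-beta, Adamts1 lost its call on omitting TGF-beta 1 (adjusted p = 0.0606), TGF-beta 2 (0.076), K-80003 1 (0.136) or K-80003 2 (0.189), with 6.77e-11 to 0.189 over 13 alternatives. Against Control, Adamts1 lost its call on omitting K-80003 1 (adjusted p = 0.0582) or K-80003 2 (0.0807), with 2.25e-13 to 0.0807 over 13 alternatives. Adamts9, another versican-cleaving protease, stood at 247 and 169.7 CPM in Control, 101 and 158 with TGF-beta, and 40.4 and 29.9 with K-80003. Its libraries spread widely within groups, yet K-80003 lay below all others, at -1.88 (SE 0.31, adjusted p = 0.0131) against TGF-beta and -2.57 (SE 0.31, adjusted p = 0.00307) against Control. Against TGF-beta, Adamts9 lost its call on omitting K-80003 1 (adjusted p = 0.0574) or K-80003 2 (0.104), with 4.25e-19 to 0.104 over 13 alternatives. TGF-beta against Control gave -0.68 (SE 0.30, adjusted p = 0.363) for Adamts9, which was called there without the low-count filter (0.0396). Adamts9 overlaps 9530026P05Rik on the opposite strand (96 to 267 counts a library).

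Adamts15 and Adamts8 lie 20.1 kb apart on opposite strands of chromosome 9 and had different patterns. Adamts15 stood at 9.76 and 8.61 CPM in Control, 7.40 and 9.85 with TGF-beta, and 1.67 and 1.81 with K-80003, with Control and TGF-beta overlapping. It fell with K-80003 by 2.30 (SE 0.24, adjusted p = 0.00276) on the log2 scale against TGF-beta, a call held in all alternatives. Adamts8 (ENSMUSG00000031994, GRCm39 chromosome 9, 30853858 to 30875134) stood at 0.313 and 0.289 CPM in Control, 3.73 and 4.31 with TGF-beta, and 1.47 and 1.23 with K-80003. The groups did not overlap, and TGF-beta was highest. Its 10 counts in Control faced 136 with TGF-beta, which is 13.3 times the level (counting interval 7.03 to 28.4 at 95%, adjusted p = 0.00798). Adamts8 lost this call under the replicate block (adjusted p = 0.0506). With K-80003 it fell by 1.57 (SE 0.29, adjusted p = 0.0207) on the log2 scale against TGF-beta and stayed above Control by a ratio of 4.51 (2.25 to 9.98, adjusted p = 0.0119). Against TGF-beta, Adamts8 lost its call on omitting TGF-beta 1 (adjusted p = 0.0829), TGF-beta 2 (0.108), K-80003 1 (0.116) or K-80003 2 (0.16), with 0.00012 to 0.16 over 13 alternatives. In K-80003 against Control, Adamts8 lost its call on omitting Control 1 (adjusted p = 0.0506), Control 2 (0.0638), K-80003 1 (0.075) or K-80003 2 (0.0503) and under limma on log2(FPKM + 1) (0.0529), with 0.000449 to 0.075 over 13 alternatives. Adamts4 stood at 3.38 and 2.20 CPM in Control, 3.45 and 3.20 with TGF-beta, and 2.15 and 1.70 with K-80003 and was not called.

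**Figure D5:**
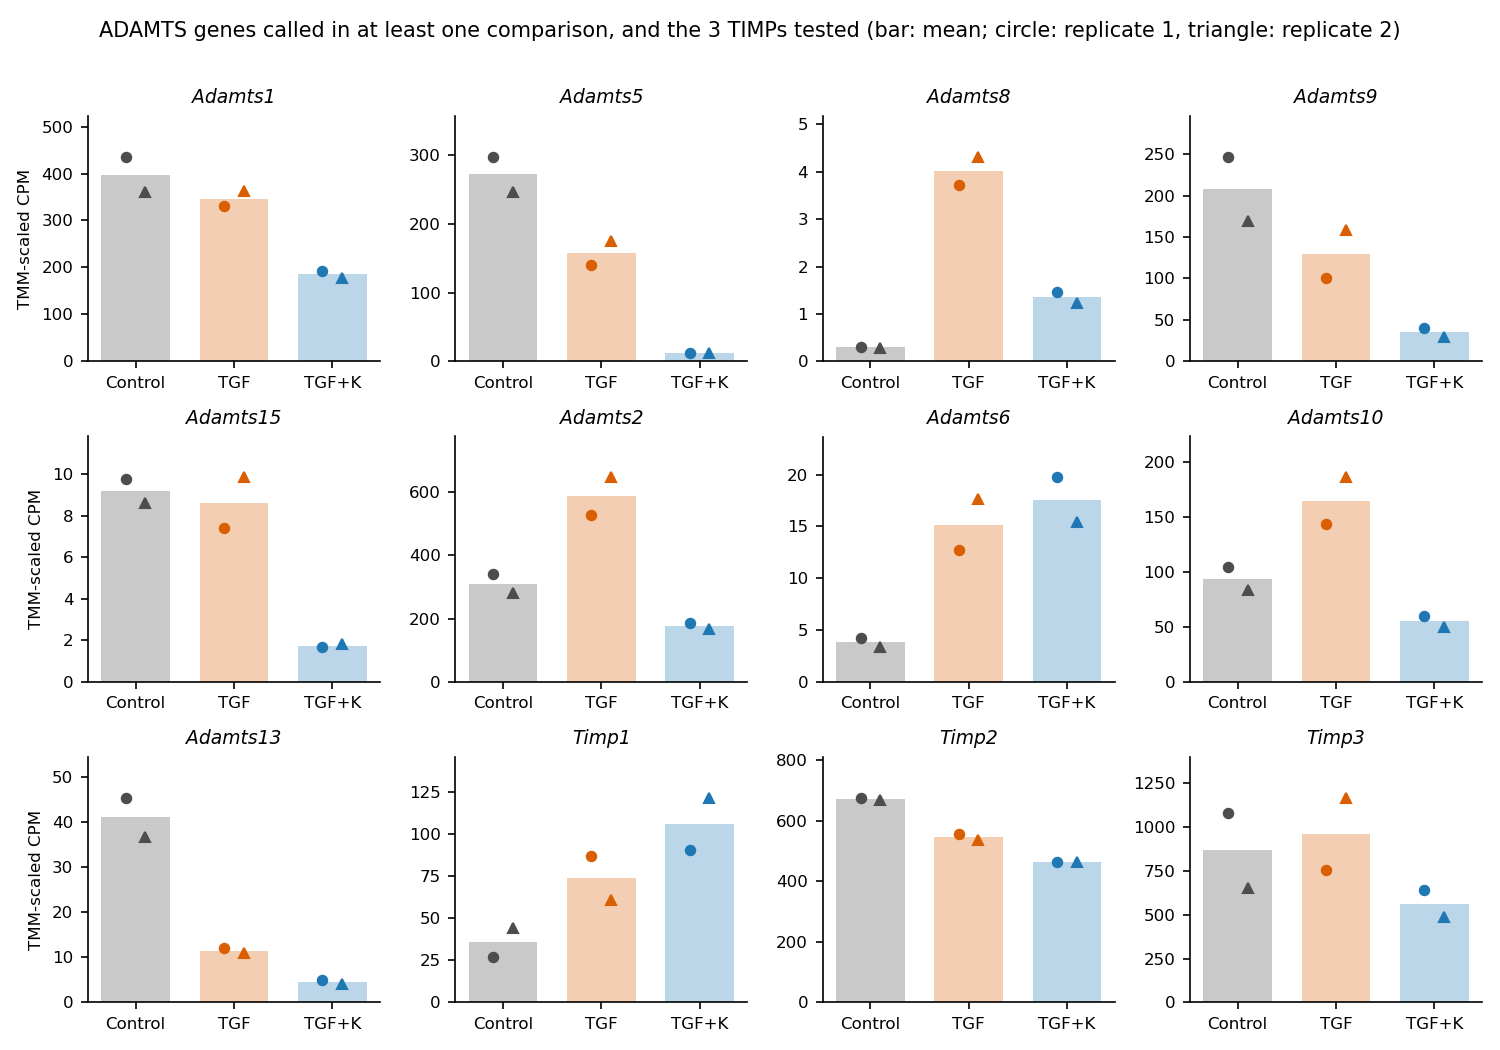
TMM-scaled CPM (y axis, from 0) of the 9 ADAMTS genes called in at least 1 comparison and of the 3 tested TIMPs, in Control, TGF-beta (TGF) and TGF-beta with K-80003 (TGF+K); bars are means of 2 libraries, circles replicate 1 and triangles replicate 2. Adamts5 drops to 12.1 and 12.2 CPM with K-80003, and Timp1 and Timp3 have opposite orders of the replicates in every group.

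Procollagen N-proteinases remove the amino-terminal propeptide of fibrillar procollagens before fibrils form. Adamts2, the most abundant of the 3 (ENSMUSG00000036545, GRCm39 chromosome 11, 50492911 to 50698400), stood at 339.7 and 279.6 CPM in Control, 528 and 646 with TGF-beta, and 187 and 168 with K-80003. TGF-beta was highest and K-80003 lowest, with no overlap, and the fall from TGF-beta to K-80003 was -1.72 (SE 0.18, adjusted p = 0.00282), a call held in all alternatives. TGF-beta alone gave 0.92 (SE 0.18, adjusted p = 0.054), and K-80003 against Control -0.80 (SE 0.18, adjusted p = 0.0274). With TGF-beta against Control, Adamts2 was called without the low-count filter (adjusted p = 0.000653) and under DESeq2 (0.00143), with 8.11e-11 to 0.219 over 13 alternatives. In K-80003 against Control, Adamts2 lost its call on omitting Control 1 (adjusted p = 0.0934), K-80003 1 (0.136) or K-80003 2 (0.209), with 1.09e-09 to 0.209 over 13 alternatives. Adamts14 stood at 41.7 and 30.9 CPM in Control, 24.7 and 34.1 with TGF-beta, and 26.0 and 20.6 with K-80003 and was not called in any comparison. In K-80003 against Control, Adamts14 was called without the low-count filter (adjusted p = 0.0288). Adamts3 stood at 3.94 and 1.85 CPM in Control, 3.28 and 4.68 with TGF-beta, and 1.15 and 0.468 with K-80003. K-80003 against Control gave -1.81 (SE 0.55, adjusted p = 0.0739), or -2.28 on omitting Control 2. That difference was called without the low-count filter (adjusted p = 8.44e-05) and under DESeq2 (0.0207). Between K-80003 and TGF-beta, Adamts3 had a difference of -2.27 (SE 0.55, adjusted p = 0.0507). Adamts3 was called on omitting Control 1 (adjusted p = 0.0337) or Control 2 (0.0277), with upper-quartile scaling (0.0431), without the low-count filter (2.91e-07) and under DESeq2 (0.00283), with 2.91e-07 to 0.227 over 13 alternatives.

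Adamts6 and Adamts10 encode proteases tied to fibrillin microfibrils. Adamts6 (ENSMUSG00000046169, GRCm39 chromosome 13, 104424343 to 104633203) stood at 4.25 and 3.41 CPM in Control, 12.7 and 17.6 with TGF-beta, and 19.7 and 15.5 with K-80003, with Control below both treated groups. It rose with TGF-beta by 1.98 (SE 0.25, adjusted p = 0.0161), differed by 0.22 (SE 0.23, adjusted p = 0.671) between K-80003 and TGF-beta, and was above Control with K-80003 by 2.20 (SE 0.25, adjusted p = 0.00255). With TGF-beta, Adamts6 lost its call on omitting Control 2 (adjusted p = 0.0695) or TGF-beta 2 (0.053), with 4.07e-12 to 0.0763 over 13 alternatives. Adamts10 (ENSMUSG00000024299, GRCm39 chromosome 17, 33743178 to 33772756) stood at 104 and 83.4 CPM in Control, 143 and 186 with TGF-beta, and 60.1 and 50.2 with K-80003, highest with TGF-beta and lowest with K-80003. It fell with K-80003 by 1.58 (SE 0.21, adjusted p = 0.00624) on the log2 scale against TGF-beta. Against TGF-beta, Adamts10 lost its call on omitting K-80003 2 (adjusted p = 0.0707), with 2.63e-17 to 0.0707 over 13 alternatives. TGF-beta against Control gave 0.81 (SE 0.20, adjusted p = 0.11) and K-80003 against Control -0.76 (SE 0.21, adjusted p = 0.0502), neither called. With TGF-beta against Control, Adamts10 was called without the low-count filter (adjusted p = 0.00803) and under DESeq2 (0.0263), with 4.4e-09 to 0.373 over 13 alternatives. In K-80003 against Control, Adamts10 was called on omitting Control 2 (adjusted p = 0.0453), TGF-beta 1 (0.0419) or TGF-beta 2 (0.0422), with upper-quartile scaling (0.0279), without the low-count filter (0.0038), under DESeq2 (0.0155) and under limma on log2(FPKM + 1) (0.0463), with 1.07e-08 to 0.294 over 13 alternatives.

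Adamts7 and Adamts12, which cleave cartilage oligomeric matrix protein, were not called. Adamts12 stood at 124 and 55.2 CPM in Control, 162 and 327 with TGF-beta, and 153 and 95.6 with K-80003, so Control and K-80003 overlapped and TGF-beta lay above both, with wide gaps between the libraries of each group. Its difference with TGF-beta was 1.45 (SE 0.49, adjusted p = 0.229). In that comparison Adamts12 was called without the low-count filter (adjusted p = 7.74e-09) and under DESeq2 (0.0288), with 3.88e-15 to 0.549 over 13 alternatives. With K-80003 against TGF-beta, Adamts12 was called without the low-count filter (adjusted p = 0.000111), with 2.65e-10 to 0.679 over 13 alternatives. Adamts7 stood at 42.5 and 34.5 CPM in Control, 37.5 and 53.5 with TGF-beta, and 47.6 and 40.9 with K-80003, and its groups overlapped.

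Adamts13, the von Willebrand factor-cleaving protease for which stellate cells are the known liver source (ENSMUSG00000014852, GRCm39 chromosome 2, 26863428 to 26899640), fell in each step. It stood at 45.4 and 36.8 CPM in Control, 12 and 11.0 with TGF-beta, and 4.92 and 4.16 with K-80003, with no overlap between groups. The change was -1.84 (SE 0.18, adjusted p = 0.00824) with TGF-beta, -1.33 (SE 0.19, adjusted p = 0.00804) with K-80003 against TGF-beta, and -3.18 (SE 0.19, adjusted p = 0.000368) with K-80003 against Control. Against TGF-beta, Adamts13 lost its call on omitting K-80003 1 (adjusted p = 0.0547) or K-80003 2 (0.0853), with 1.17e-08 to 0.0853 over 13 alternatives. The other 2 calls held in all alternatives. Of 9 stellate cell markers tested, edgeR called none higher in any comparison. It called 1 lower with TGF-beta (Colec11, -1.96), beside 1.88% of all genes tested. With K-80003, 6 were lower against TGF-beta and 7 against Control, beside 7.32% and 11.7% of all genes tested. With TGF-beta, 5 had an unadjusted p under 0.05, and DESeq2 called 3 and limma 2. Pdgfrb, the PDGF receptor of stellate cells, had a difference of the opposite sign that was not called, at 581 and 407 CPM in Control, 931 and 1337 with TGF-beta, and 535 and 445 with K-80003, or 1.20 (SE 0.26, adjusted p = 0.0721) for TGF-beta against Control. Lrat, the retinyl ester-forming enzyme of quiescent stellate cells, differed by -1.11 with TGF-beta (adjusted p = 0.053) and fell by 5.22 with K-80003 against TGF-beta. Their part in the Adamts13 change was not tested.

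The TIMPs showed no call with TGF-beta and none with K-80003 against TGF-beta in edgeR's fit, where 1 of 3 tested had an unadjusted p under 0.05 in each comparison. DESeq2 called 1 with TGF-beta and none in the other, and limma none in either. Timp1, the inducible TIMP (ENSMUSG00000001131, GRCm39 chromosome X, 20736405 to 20740974), stood at 27.3 and 44.3 CPM in Control, 86.7 and 60.8 with TGF-beta, and 90.6 and 122 with K-80003. Control was lowest, and the TGF-beta and K-80003 groups did not overlap but lay close, at 86.7 and 90.6 CPM for their nearest libraries. The differences were 1.04 (SE 0.30, adjusted p = 0.158) with TGF-beta and 0.52 (SE 0.30, adjusted p = 0.37) with K-80003 against TGF-beta, while K-80003 against Control gave 1.57 (SE 0.30, adjusted p = 0.0168). With TGF-beta against Control, Timp1 was called without the low-count filter (adjusted p = 0.000151) and under DESeq2 (0.0274), with 8.14e-11 to 0.582 over 13 alternatives. In K-80003 against Control, Timp1 lost its call on omitting Control 1 (adjusted p = 0.0547) or K-80003 2 (0.101), with 1.16e-16 to 0.101 over 13 alternatives. Timp1 lies inside Syn1 on the opposite strand (36 to 140 counts a library).

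Timp2, which inhibits MMPs and is also needed by MT1-MMP to activate pro-MMP2 (ENSMUSG00000017466, GRCm39 chromosome 11, 118191895 to 118246566), stood at 676 and 669.8 CPM in Control, 556 and 535 with TGF-beta, and 462 and 463 with K-80003. The groups did not overlap, and K-80003 against Control gave -0.54 (SE 0.13, adjusted p = 0.0357). Timp2 lost its call on omitting any 1 library (adjusted p = 0.0674 to 0.266) and under limma on log2(FPKM + 1) (0.057), with 3.03e-06 to 0.266 over 13 alternatives. Timp3, the matrix-bound TIMP (ENSMUSG00000020044, GRCm39 chromosome 10, 86136236 to 86185370), stood at 1083 and 652 CPM in Control, 754 and 1167 with TGF-beta, and 642 and 485 with K-80003. Control and TGF-beta overlapped, and K-80003 lay just below both. It was not called, with 0.15 (SE 0.32, adjusted p = 0.931) for TGF-beta against Control and -0.77 (SE 0.32, adjusted p = 0.219) for K-80003 against TGF-beta. Against TGF-beta, Timp3 was called without the low-count filter (adjusted p = 0.00162), with 1.47e-08 to 0.601 over 13 alternatives. Against Control, Timp3 was called without the low-count filter (adjusted p = 0.0124), with 1.4e-06 to 0.678 over 13 alternatives. Within every group, the library with more Timp3 was the one with less Timp1 and the higher summed stellate marker level. Per length, Timp3 stood at 109.6 ± 37.1, 111 ± 31.2 and 70.5 ± 12.3 FPKM in Control, TGF-beta and K-80003 and Timp2 at 178 ± 1.35, 133 ± 6.89 and 121 ± 2.91 FPKM (mean ± SD, n = 2).

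In all, 15 members did not pass the filter, with at most 42 counts over all 6 libraries. Adamts18, Adamts19 and Timp4 had 0 counts in every library, which allows up to 3 counts each, or 0.158 to 0.192 CPM. Mmp9, gelatinase B, had 0 to 3 counts a library and Mmp8, the neutrophil collagenase, 0 to 13. The 6 neutrophil markers were near 0 too, at 0.0578 to 0.314 CPM in sum, with Ly6g, Elane and Mpo at 0 counts in all libraries. Mmp1b had 1 to 10 counts and Mmp1a 0 to 1; these 2 closely related copies could share reads, and Mmp1b overlaps Mmp12 on the opposite strand. Mmp16 had 5 to 12 counts and Mmp24 1 to 10. The other 6 (Mmp20, Mmp21, Mmp25, Adamts16, Adamts17 and Adamts20) had 0 to 5.

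Other genes of pericellular proteolysis were taken from 7 further lists. Beside them, 1.06% of all genes tested were higher and 1.88% lower with TGF-beta, or 2.94% called in all. With K-80003 against TGF-beta, 2.78% of all genes tested were higher and 7.32% lower, or 10.1% called in all. In the plasminogen system 10 of 11 genes were tested; 1 rose with TGF-beta, and 2 rose and 1 fell with K-80003 against TGF-beta. Serpine2, protease nexin-1, rose with TGF-beta by 1.33 (SE 0.16, adjusted p = 0.0134). With K-80003, Plat, tissue plasminogen activator, went from 46.2 and 51.9 to 13.8 and 11.9 CPM, -1.93 (SE 0.16, adjusted p = 0.00146). The urokinase receptor gene Plaur rose by 1.50 (SE 0.19, adjusted p = 0.00561) and Serpinb2, PAI-2, by 1.58 (SE 0.22, adjusted p = 0.008). Serpine2 lost its call on omitting Control 1 (adjusted p = 0.0616), Control 2 (0.0767) or TGF-beta 1 (0.0919), with 5.16e-12 to 0.0919 over 13 alternatives. Plaur lost its call on omitting K-80003 2 (adjusted p = 0.0533), with 1.09e-15 to 0.0533 over 13 alternatives. Serpinb2 lost its call on omitting K-80003 1 (adjusted p = 0.0708), with 1.28e-07 to 0.0708 over 13 alternatives.

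Of 14 other inhibitors and clearance genes, 11 were tested. Tfpi2 (1.69, SE 0.23, adjusted p = 0.0176) and Pcolce2 (1.44, SE 0.26, adjusted p = 0.0424) rose with TGF-beta. In K-80003 against TGF-beta, Pcolce, an enhancer of procollagen C-proteinase, fell from 327 and 283 to 95.8 and 109 CPM, -1.58 (SE 0.16, adjusted p = 0.00269), and the lipoprotein receptor gene Lrp8 rose (1.36, SE 0.31, adjusted p = 0.0414). Tfpi2 lost its call on omitting Control 1 (adjusted p = 0.0547), TGF-beta 1 (0.0982) or TGF-beta 2 (0.0602), with 1.16e-12 to 0.0982 over 13 alternatives. Pcolce2 lost its call on omitting any 1 library (adjusted p = 0.0725 to 0.213), with upper-quartile scaling (0.0564) and under limma on log2(FPKM + 1) (0.0891), with 3.39e-06 to 0.213 over 13 alternatives. Lrp8 lost its call on omitting TGF-beta 1 (adjusted p = 0.142), K-80003 1 (0.206) or K-80003 2 (0.111), with 6.54e-14 to 0.206 over 13 alternatives.

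Of 7 activator and inducer genes, all tested, Pcsk5, a proprotein convertase, fell with K-80003 by 2.32 (SE 0.19, adjusted p = 0.00138) on the log2 scale. Of 11 astacin and serine protease genes 8 were tested, and Bmp1, the procollagen C-proteinase, rose with TGF-beta (0.85, SE 0.15, adjusted p = 0.0377). Prss23 (-2.55, SE 0.23, adjusted p = 0.00168) and Htra3 (-1.51, SE 0.16, adjusted p = 0.00259) fell with K-80003. Bmp1 lost its call on omitting any 1 library (adjusted p = 0.0992 to 0.188), with 7.31e-10 to 0.188 over 13 alternatives. No activator, inducer or cathepsin gene was called with TGF-beta by edgeR, DESeq2 or limma; 1 of 7 and 2 of 7 had an unadjusted p under 0.05. Of 7 cathepsins, Ctsk, a collagen-degrading cysteine protease, rose with K-80003 (1.12, SE 0.17, adjusted p = 0.0103). Ctsk lost its call on omitting TGF-beta 2 (adjusted p = 0.0789), K-80003 1 (0.073) or K-80003 2 (0.104), with 3.99e-13 to 0.104 over 13 alternatives.

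Of 6 collagen uptake and receptor genes, 3 fell with K-80003 against TGF-beta, beside 7.32% of all genes tested. Mrc2, which encodes the endocytic collagen receptor Endo180, went from 96.0 and 126 to 43.6 and 41.2 CPM (-1.39, SE 0.18, adjusted p = 0.00555). The collagen-binding kinase gene Ddr1 (-1.21, SE 0.14, adjusted p = 0.00413) and the scavenger receptor gene Cd36 (-1.54, SE 0.16, adjusted p = 0.00259) were the others. Mrc2 lost its call on omitting K-80003 1 (adjusted p = 0.0586) or K-80003 2 (0.0703), with 1.07e-14 to 0.0703 over 13 alternatives. Ddr1 lost its call on omitting K-80003 1 (adjusted p = 0.0601) or K-80003 2 (0.0701), with 5.01e-14 to 0.0701 over 13 alternatives. Cd36 also fell with TGF-beta (-1.50, SE 0.15, adjusted p = 0.00886). In that comparison Cd36 lost its call on omitting TGF-beta 1 (adjusted p = 0.0592) or TGF-beta 2 (0.069), with 3.21e-14 to 0.069 over 13 alternatives. None of 9 ADAM genes was called by edgeR in either comparison, beside 2.94% of all genes tested with TGF-beta and 10.1% with K-80003. Of the 9, 2 had an unadjusted p under 0.05 in each comparison. DESeq2 called 2 with TGF-beta and none with K-80003, and limma none.

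In K-80003 against Control the lists are given by their counts, with the number called when any 1 library was left out in parentheses. Of all genes tested, 5.54% were higher, 11.7% lower and 17.3% called in this comparison. The lists held 3 higher and 2 lower of 10 plasminogen genes (1 to 5 called), 3 higher and 3 lower of 11 inhibitor and clearance genes (3 to 6 called), and 1 higher and 2 lower of 7 activator and inducer genes (1 to 2 called). There were 0 higher and 2 lower of 9 ADAM genes (0 to 2 called), 1 higher and 3 lower of 8 astacin and serine protease genes (1 to 5 called), and 1 higher and 1 lower of 7 cathepsin genes (1 to 2 called). The rest were 0 higher and 2 lower of 6 collagen uptake and receptor genes (1 to 2 called) and 2 higher and 1 lower of 7 AP-1 genes (1 to 3 called).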

How the data were processed

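Each gene has, per library, a raw whole-number count and an FPKM value, both as deposited by the authors, and a GRCm39 position. The deposited FPKM equals the count per exonic length and summed library count (within 0.005 for 100% of values) and served to compare genes. Per the submitters' processing notes, which give no roles, the tools were Cufflinks 2.2.1, HTSeq 0.6.1, HISAT2 2.0.1, cutadapt 1.9.1, SAMtools 0.1.19 and DESeq2, and the build GRCm39. Neither annotation release nor strand setting is stated, and genes overlapping on opposite strands and close paralogs are uncertain. Summed counts per library ran from 15646093 to 19004144.

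Genes were kept by filterByExpr (minimum count 10, minimum total count 15), which left out 0.130% of counts. One edgeR 4.0.16 quasi-likelihood fit (R 4.3.3) of all 6 libraries, TMM-scaled and without a block, had 3 residual and 3.45 prior degrees of freedom. Tests were two-sided, with Benjamini-Hochberg adjustment over all genes tested. With 2 libraries a group, a permutation test of single values could not reach the threshold, so none was made. Ratios of genes with few counts carry exact 95% binomial intervals, which cover counting error only. Replicates of a group differed by more than sampling noise. The procedure was run on simulated counts with the same dispersion for every gene and independent libraries. That setting leaves out the unequal replicate gaps of these data, so it supports no single call.

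The members and all gene lists were chosen with earlier results of these data known. Values are given for members called in at least 1 comparison or tested, and for up to 3 called genes of each further list with the smallest p. A gene of the plasminogen list is not reported here. Alternatives were other scalings, no low-count filter, DESeq2 1.42.0, limma 3.58.1 on log2(FPKM + 1), a replicate block, and each library left out; a block with crossed numbers was added after seeing the data. Promoter sequences are RefSeq's on GRCm38.p6, whose coordinates are kept apart from those of the deposited table.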

Additional observations from a re-analysis of the deposited data

How the results depend on the processing

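The member counts were within 1.5 times the main ones under both other scalings and limma. For TGF-beta against Control, 7 members were higher, in place of 2, without the low-count filter and under DESeq2. The share of all genes called under each alternative is not given here, so the counts in this section support no claim about the family. With 1 library left out, the counts ran from 1 to 2 higher and stood at 1 lower for TGF-beta against Control, from 1 to 3 and 5 to 13 for K-80003 against TGF-beta, and from 3 to 6 and 9 to 14 for K-80003 against Control. Of the calls, 1 of 6, 6 of 16 and 12 of 21 held in every alternative. The cause of these shifts was not tested, although each fit with a library left out has fewer samples.

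Same-numbered libraries deviated together in 1 pair of groups and apart in 2 (correlation of deviations 0.50 for Control and K-80003, -0.64 for Control and TGF-beta, -0.48 for TGF-beta and K-80003), and the labels do not say whether a number marks a shared culture, so no pairing was assumed. With the replicate block, 0 members were higher and 1 lower for TGF-beta against Control, and 1 was higher for K-80003 against TGF-beta; the other counts stayed within 1.5 times. Under this block Adamts8 lost its call for TGF-beta against Control (adjusted p = 0.0506), which held in the other 12 alternatives. Mmp7, Mmp12, Mmp15 and Adamts6 also lost their calls in that comparison under the block. For K-80003 against TGF-beta, the block removed the calls of Mmp2, Mmp10, Mmp11, Mmp15, Adamts1 and Adamts8. For K-80003 against Control, it removed those of Mmp11, Mmp27, Mmp28, Adamts2 and Timp2. With the TGF-beta numbers crossed, chosen after seeing the data, 9 were higher and 11 lower for TGF-beta against Control, and 5 higher and 20 lower for K-80003 against TGF-beta. No share of all genes under either block is given beside these counts, so they are not a result about the members.

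None of the genes whose sign turned was called in that comparison. For TGF-beta against Control, the sign turned for Mmp3 (-0.00195 with median-of-ratios scaling, -0.0517 with upper-quartile scaling, -0.00195 under DESeq2, -0.11 under limma on log2(FPKM + 1), -0.23 to 0.23 with 1 library left out), Mmp17 (-0.0446 under limma on log2(FPKM + 1), -0.0665 to 0.20 with 1 library left out), Adamts4 (-0.0257 to 0.60 with 1 library left out), Adamts15 (-0.29 to 0.0685 with 1 library left out), Adamts7 (-0.0224 to 0.44 with 1 library left out), Timp3 (-0.18 to 0.56 with 1 library left out), Plat (-0.11 to 0.0711 with 1 library left out), Cst3 (-0.45 to 0.29 with 1 library left out), Pcsk6 (-0.79 to 0.0168 with 1 library left out) and Prss35 (-0.69 to 0.18 with 1 library left out). For K-80003 against TGF-beta, the sign turned for Adamts7 (0.0725 under limma on log2(FPKM + 1), -0.27 to 0.20 with 1 library left out), Tfpi2 (-0.0342 to 0.24 with 1 library left out), Cd44 (-0.0121 to 0.19 with 1 library left out), Tll1 (-0.83 to 0.0467 with 1 library left out) and Fos (0.00484 under limma on log2(FPKM + 1), -0.26 to 0.048 with 1 library left out). For K-80003 against Control, the sign turned for Adamts12 (-0.0201 to 1.17 with 1 library left out). Depth limits the 15 members left out by the filter. Without it, 12 of them could be fitted and edgeR called none in any comparison; Mmp1b with TGF-beta against Control (unadjusted p = 0.0297, adjusted p = 0.387) and Adamts17 with K-80003 against TGF-beta (unadjusted p = 0.0264, adjusted p = 0.213) had an unadjusted p under 0.05.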
